A study of Mus musculus with 2 samples.

Results

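The genes described here are 5 CC chemokines and 2 receptors of the mouse: the macrophage inflammatory protein genes Ccl3, Ccl4 and Ccl9, Ccl6, the RANTES gene Ccl5, the signalling receptor gene Ccr1 and the atypical receptor gene Ccrl2. They were chosen by symbol, and all 7 were found among the 31053 genes of both feature tables. Their RNA was counted in single cells from the eyes of C57BL/6 mice that had received zymosan, a yeast cell wall preparation, inside the eye. Mice of one group received the treatment labelled NRS, and those of the other an antiserum labelled aCXCR2, named for the chemokine receptor CXCR2. Cells from the vitreous and from a wash of the retina were enriched on magnetic beads against the neutrophil surface protein Ly6G and captured in droplets for 3′ end sequencing. Each group is 1 library, and the sources used here state neither the age nor the number of mice. Every ratio is aCXCR2 over NRS.

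CC chemokines are small secreted proteins that attract leukocytes by binding G protein-coupled receptors. Ccr1 is a signalling receptor of Ccl3, Ccl5 and the rodent chemokines Ccl6 and Ccl9. Ccrl2 does not signal on its own and presents the attractant chemerin to neighbouring cells. Neutrophils and macrophages both make and receive several of these signals in inflamed tissue.

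In the GENCODE annotation of mouse build GRCm38, the 5 ligand genes lay together on chromosome 11. They were Ccl5 (chr11:83525778-83530518), Ccl9 (chr11:83572919-83578636), Ccl6 (chr11:83587882-83593087) and Ccl3 (chr11:83647844-83649355), all on the minus strand, and Ccl4 (chr11:83662584-83664683) on the plus strand. Ccrl2 (chr9:111054486-111057519) and Ccr1 (chr9:123962124-123968692) lay on the minus strand of chromosome 9. Ccl6 overlaps E230016K23Rik on the opposite strand, and the sources used here do not say whether counting used strand.

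Promoter windows of 250 bases before the gene start are shown for Ccl3 and Ccrl2, whose levels followed each other across clusters, and for Ccl9, whose ratio had opposite signs in the main cell classes. They come from RefSeq, build GRCm38.p6, are written 5′ to 3′ on the gene's minus strand, and carry matches to searched motifs in capitals.
Ccl3, chr11:83649379-83649628: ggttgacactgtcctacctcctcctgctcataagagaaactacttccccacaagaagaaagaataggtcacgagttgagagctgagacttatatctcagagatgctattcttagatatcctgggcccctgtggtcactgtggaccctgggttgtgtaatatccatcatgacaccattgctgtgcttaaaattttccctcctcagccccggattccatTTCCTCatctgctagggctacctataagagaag
Ccrl2, chr9:111057519-111057768: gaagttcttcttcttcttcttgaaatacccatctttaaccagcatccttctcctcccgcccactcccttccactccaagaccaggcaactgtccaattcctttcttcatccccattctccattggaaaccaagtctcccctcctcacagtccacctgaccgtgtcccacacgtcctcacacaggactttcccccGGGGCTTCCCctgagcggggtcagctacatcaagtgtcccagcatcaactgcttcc
Ccl9, chr11:83578637-83578886: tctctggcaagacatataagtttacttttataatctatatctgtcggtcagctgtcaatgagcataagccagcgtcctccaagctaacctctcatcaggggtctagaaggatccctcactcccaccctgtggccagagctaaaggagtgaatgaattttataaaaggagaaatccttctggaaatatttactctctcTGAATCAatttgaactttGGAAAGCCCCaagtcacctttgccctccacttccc
Motifs were searched on both strands without mismatches. The capitals are the PU.1 core GAGGAA on the opposite strand in Ccl3 and the NF-kappaB consensus in Ccrl2. In Ccl9 they are the AP-1 motif TGANTCA followed by the NF-kappaB consensus on the opposite strand. Across 32851 windows of this length, the NF-kappaB consensus was found in 7.25%, AP-1 in 6.75%, the PU.1 core in 23.25%, the C/EBP motif TTGCNNAA in 9.56% and an interferon-stimulated response element core in 2.98%. A Ccr1 window held the NF-kappaB consensus and the PU.1 core, and a Ccl6 window held none of the searched motifs. Ccrl2 has 3 listed starts, of which the first was used. A match is a string of letters, not a measured binding site.

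After filtering, 5655 NRS cells (median 4759 UMIs) and 4822 aCXCR2 cells (median 10360.5 UMIs) were used. Clusters were named from marker genes. Neutrophil-like clusters held 2241 NRS and 2477 aCXCR2 cells, macrophage-like clusters 608 and 1765, photoreceptor-like clusters 1186 and 335, a lens-like cluster 86 and 7, and unnamed clusters 1534 and 238. The Ly6G label thus covers many cells that are not neutrophil-like. All 12 neutrophil markers were detected in the neutrophil-like class, with a summed level of 53552 counts per 1000000 UMIs (CPM) in NRS and 171176 in aCXCR2. Different clusters made up most of that class in the libraries, namely 2 and 3 for NRS, against 4, 7, 8 and 12 for aCXCR2. Macrophage-like cells lay mostly in clusters 14, 10 and 11 in NRS and in cluster 1 in aCXCR2. Before any result, 53 cell barcodes were found in both libraries. In 46 of these pairs the deeper cell had at least 50000 UMIs, 42 times in NRS and 4 times in aCXCR2, and its partner held 0.669% to 1.17% as many (median 0.956%). Most were photoreceptor-like (37 in NRS and 38 in aCXCR2), and leaving all of them out moved no ratio of the neutrophil-like or macrophage-like class past or back across 2-fold.

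Since a group is a single library, differences have no replicate check, and none was tested. Intervals are 95%, exact, and cover counting error only. A gene was counted as higher or lower when it differed at least 2-fold with at least 50 CPM in 1 library. In neutrophil-like cells, 2 of the 6 genes measured at that level were lower in aCXCR2, Ccl9 and Ccrl2, and 0 were higher. Of all 3045 genes at that level, 10.4% were lower and 2.27% higher, and their median log2 ratio was -0.42. In macrophage-like cells, 1 of 7 was higher, Ccl5, and 0 were lower, beside 4.52% higher and 2.56% lower among 2852 genes with a median log2 ratio of 0.12. The neutrophil-like comparison depends on scaling. S100a8, a neutrophil calcium-binding protein gene, was at 25449 CPM in NRS and 79578 in aCXCR2, and TMM scaling adds 0.64 and median-of-ratios scaling 0.70 to every log2 ratio of the class. Under both scalings Ccl9 was lower (log2 -1.81 and -1.76) and Ccl6 higher (1.08 and 1.14) by at least 2-fold, while Ccrl2 was not past it (-0.56 and -0.50). The shares of all genes then were 8.64% higher and 1.05% lower under TMM, and 9.85% and 0.92% under median-of-ratios scaling. The neutrophil-like count lower was 3, with Ccl3 added, when the 7 genes were kept in the clustering (6.95% of all genes lower) and without cluster 2 (5.51%). Where another setting took it to 1, that share was 4.92% (resolution 0.5), 14% (without cluster 3), 20.2% (without cluster 4), 1.28% (clusters weighted equally) and 4.11% (marker score of at least 0.4). Where the count higher changed, it was 2.62% with cells classed by their own markers and 1.75% at a minimum of 10 CPM. For macrophage-like cells the shares were 5.06% higher and 3.06% lower by own markers, and 6.8% higher without cluster 10, which leaves the clusters of the 0.4 score.

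**Figure D1:**
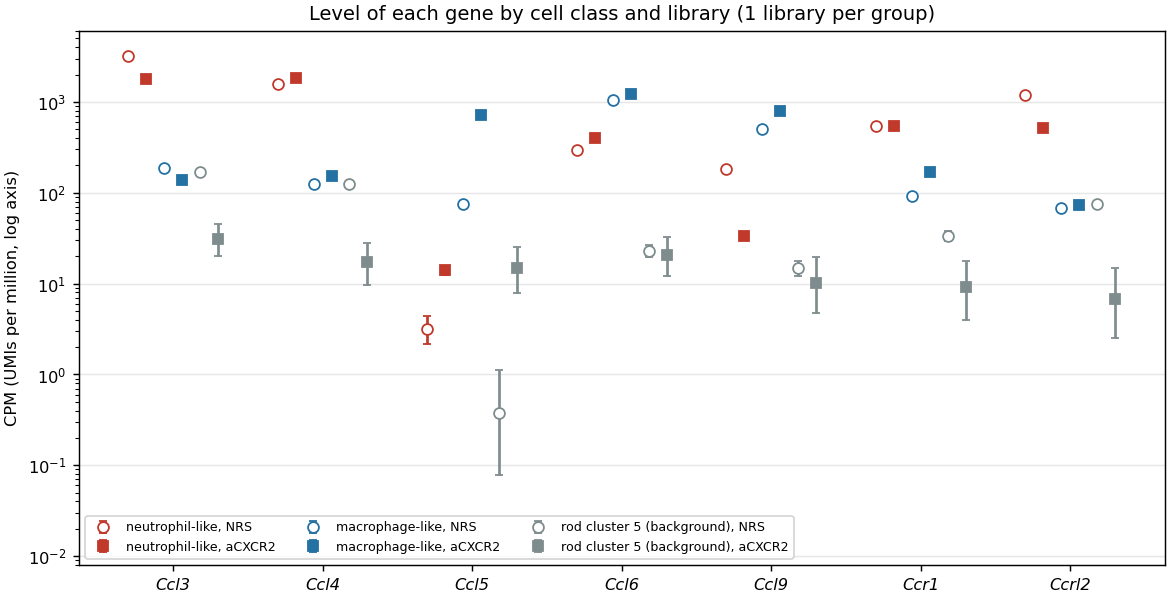
Level of each gene in CPM (log axis) in neutrophil-like cells, macrophage-like cells and rod cluster 5, whose rods serve as a background level. Open circles are NRS, filled squares aCXCR2, and bars are exact 95% Poisson intervals. Ccl3, Ccl4, Ccr1 and Ccrl2 were higher in the neutrophil-like class, Ccl5, Ccl6 and Ccl9 in the macrophage-like class, and the aCXCR2 level of Ccl5 was above that of cluster 5 in macrophage-like but not in neutrophil-like cells.

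Levels in rods were used as a floor under these levels. Whether the chemokine UMIs of rods came from free RNA in the suspension or from cells captured together was not tested. Cluster 5 holds rod photoreceptors (leading genes Rcvrn, Impg2 and Sag), which should lack chemokines. It nevertheless carried Ccl3 at 171 CPM in NRS and 30.8 in aCXCR2, Ccl4 at 126 and 17.1, and Ccrl2 at 75.9 and 6.84. Ccr1 was at 33.4 and 9.12, Ccl6 at 22.7 and 20.5, and Ccl9 at 14.7 and 10.3. In NRS, therefore, the levels of Ccl3 (188 CPM), Ccl4 (125 CPM) and Ccrl2 (68.8 CPM) over the whole macrophage-like class lay close to those of rods. Its cluster 10 lay above rods, with Ccl3 at 476, Ccl4 at 407 and Ccrl2 at 99.4 CPM, and its other clusters lay below. The median depth was 23281 UMIs in NRS macrophage-like cells and 5580 in cluster 5, so an equal CPM need not mean an equal background. Cluster 5 also keeps barcodes found in both libraries. Without them 544 of its 573 NRS cells remained, and the same 3 Ccl5 UMIs stood at 0.567 instead of 0.381 CPM. Levels of the other 6 genes in cluster 5 were not taken without these barcodes, so the NRS floor is uncertain. Neutrophil-like levels of all of these genes were above cluster 5 in both libraries. Other photoreceptor clusters are less useful as a reference, because cluster 6 held summed neutrophil markers of 27471 CPM in NRS and 90668 in aCXCR2.

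Among the ligands, Ccl3 was at 3181 CPM in NRS neutrophil-like cells (interval 3147 to 3215) and 1787 in aCXCR2 (1770 to 1805). The log2 ratio of -0.83 (-0.85 to -0.81) is below 2-fold. Its level spanned a wide range over clusters. The highest was in cluster 3 (leading genes Hspa1b, Hspa1a and Prok2), with 6153 CPM in NRS and 4212 in aCXCR2. In cluster 8, led by Stfa2 and Cxcl2, it was 4190 and 4037, whereas cluster 9, led by Il1r2 and Cxcr2, had 408 and 349. Within the 6 neutrophil-like clusters that had at least 50 cells in both libraries, Ccl3 was lower in 3, higher in 1 (cluster 2, log2 0.47) and not separated from 0 by its interval in 2. The class ratio thus joins clusters with different ratios. It passed 2-fold when the 7 genes were kept in the clustering (-1.11) and without cluster 2 (-1.06), and was -0.05 at a marker score of at least 0.4.

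Ccl4 was at 1569 CPM in NRS neutrophil-like cells and 1812 in aCXCR2, a log2 ratio of 0.21 (0.18 to 0.23). The highest levels were in cluster 8 (3220 and 5954 CPM), followed by cluster 3 in NRS (2883) and cluster 2 in aCXCR2 (2462). In 3 of the 6 clusters Ccl4 was higher in aCXCR2 and in 3 lower, from log2 -1.02 in cluster 7 to 1.08 in cluster 2. The sign of the class ratio was not stable, lying between -0.14 and 0.90 and differing in 3 of 17 alternatives.

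Ccl9, a chemokine that mouse myeloid cells produce, had the largest ratio of the measured genes in neutrophil-like cells. It was at 183 CPM in NRS (176 to 192) and 33.5 in aCXCR2 (31.1 to 36.0), which is 5.48-fold lower in aCXCR2 (log2 -2.45, -2.58 to -2.33). Cluster 2, led by Stap1 and Siglecf, held 1475 of the 1991 NRS UMIs, at 319 CPM against 117 in aCXCR2. Of 6 clusters, 5 had lower Ccl9 in aCXCR2 with intervals below 0, and cluster 9 was at log2 -0.83 with an interval that held 0. Weighting clusters equally gave -1.51, leaving out cluster 2 gave -1.39, and a clustering at resolution 0.5 gave -0.79, short of 2-fold. Rods of cluster 5 in that library were at 10.3 CPM.

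In macrophage-like cells Ccl9 ran the other way, from 505 CPM in NRS to 798 in aCXCR2 (log2 0.66, 0.62 to 0.69). The 4 macrophage-like clusters did not share this. Ccl9 was higher in aCXCR2 in cluster 11 (413 to 867 CPM) and slightly in cluster 1 (761 to 836), and lower in cluster 10 (1220.2 to 989) and cluster 14 (155 to 85.2). An equal weighting of the clusters gave 0.01. Cluster 14, with the lowest Ccl9, held 38.8% of the NRS class and 6.86% of the aCXCR2 class.

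Ccl6 was at 298 CPM in NRS neutrophil-like cells and 405 in aCXCR2 (log2 0.44, 0.38 to 0.50). It was highest in cluster 9 (923 and 908 CPM) and cluster 12 of aCXCR2 (975), the clusters with Cxcr2 among their leading genes, where Ccl3 was low. The sign of the class ratio was not stable, with -0.08 when cluster 2 was left out and -0.28 at resolution 0.5. In macrophage-like cells Ccl6 was at 1042 and 1208 CPM (log2 0.21), highest in cluster 11 (leading genes Ccl8, Mrc1 and Selenop) at 2053 and 2341 CPM.

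**Figure D2:**
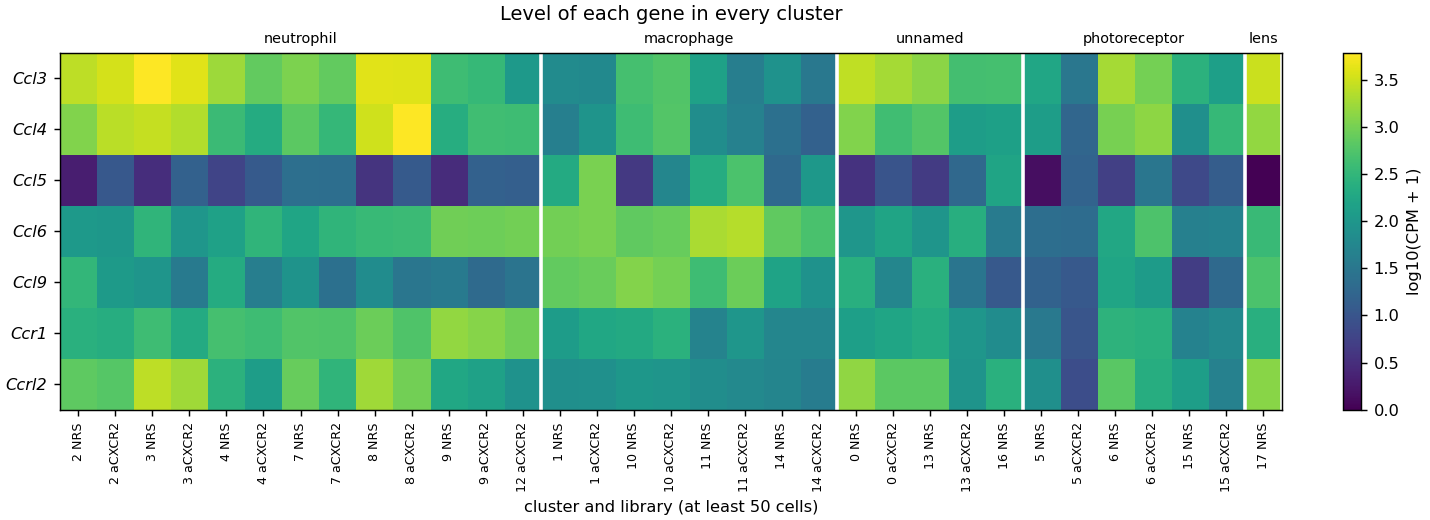
Level of each gene as log10(CPM + 1) in every cluster and library with at least 50 cells, grouped by class. Ccl3, Ccl4 and Ccrl2 were high in clusters 3 and 8 of the neutrophil-like class, and Ccr1 and Ccl6 in clusters 9 and 12. Ccl6 was high in the macrophage-like clusters, Ccl9 in clusters 1, 10 and 11 of that class but not in cluster 14, and Ccl5 in clusters 1 and 11.

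Ccl5, an attractant of monocytes and T cells, differed most between the libraries. In macrophage-like cells it was at 75.2 CPM in NRS (1175 UMIs, interval 71.0 to 79.6) and 724 in aCXCR2 (39303 UMIs, 717 to 732), 9.63-fold higher (log2 3.27, 3.18 to 3.35). It was higher in aCXCR2 in all 4 macrophage-like clusters, from log2 1.22 in cluster 11 (225 to 524 CPM) to 4.05 in cluster 10 (3.30 to 54.7 CPM). Cluster 1, led by Cd74, H2-Aa and Ccr2, went from 205 to 1078 CPM, and cluster 14, led by Spp1 and Gpnmb, from 18.7 to 104. In cluster 14 a single cell held 67 of the 137 NRS UMIs, and a single cell held 346 of the 514 aCXCR2 UMIs. The NRS level of cluster 10 rested on 12 UMIs, and a single cell held 120 of its 471 aCXCR2 UMIs. In NRS a single cell held 82 of the 237 UMIs of cluster 1 and 157 of the 789 of cluster 11. Rods of cluster 5 were also higher in aCXCR2, with a log2 ratio of 5.28 (3.42 to 7.73) from 3 and 13 UMIs. After each cell was thinned to 1000 UMIs, 3.87% of NRS and 23.0% of aCXCR2 macrophage-like cells had a Ccl5 UMI (14.97% and 55.8% before thinning). Counts were concentrated: the top 10% of cells held 97.4% of the NRS and 69.7% of the aCXCR2 UMIs. T or NK markers were nearly absent, with 3 of 10 detected at a summed 0.256 CPM in NRS and 6 of 10 at 0.498 in aCXCR2, Cd3e, Ncr1 and Cd8a being at 0 in both. Without any cell carrying such a UMI, Ccl5 was at 75.7 and 725 CPM.

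In neutrophil-like cells the aCXCR2 level of Ccl5 lay within the interval of rods. It was at 3.13 CPM in NRS (34 UMIs, 2.17 to 4.38) and 14.1 in aCXCR2 (312 UMIs, 12.5 to 15.7), while rods of cluster 5 were at 0.381 (3 UMIs, 0.0786 to 1.11) and 14.8 (13 UMIs, 7.89 to 25.3). In NRS the intervals were apart, but without cluster 7 they overlapped. The median depth was 7692 UMIs in aCXCR2 neutrophil-like cells and 5030 in cluster 5. For each 100 UMIs of the macrophage gene Apoe, aCXCR2 had 5.53 Ccl5 UMIs in neutrophil-like cells, 6.04 in macrophage-like cells and 6.53 in cluster 5. The NRS values were 0.632, 0.259 and 0.179. For each 100 UMIs of Cd74, an antigen presentation gene, the aCXCR2 values were less alike, at 15.5 (13.8 to 17.5), 20.8 (20.6 to 21.0) and 50 (23.6 to 100.9, from 13 Ccl5 UMIs), and the NRS values were 2.73, 9.28 and 5.56. For Apoe the aCXCR2 intervals overlapped (4.92 to 6.20, 5.98 to 6.10 and 3.42 to 11.4), so no order can be given, while for Cd74 they were apart. In NRS neutrophil-like cells lay above macrophage-like cells for Apoe and below them for Cd74, with intervals apart. The NRS intervals of cluster 5, from 3 Ccl5 UMIs, overlapped those of both classes for both genes (1.11 to 17.1 for Cd74). Cluster 7, led by the interferon-induced genes Cxcl10, Gbp5 and Isg15, stood at 22.9 CPM in NRS (16 UMIs in 7 cells) and 22.4 in aCXCR2. Without it the class was at 1.77 (1.05 to 2.80) and 11.7. In aCXCR2 the 108 UMIs of cluster 7 lay in 42 cells, with up to 23 in a cell. The rest of the class had 204 UMIs in 182 cells, with at most 5 in a cell, and cluster 5 at most 2. A class level near that of rods thus does not describe every neutrophil-like cell. In cluster 16 of NRS all 125 Ccl5 UMIs came from 1 cell whose barcode was in both libraries.

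**Figure D3:**
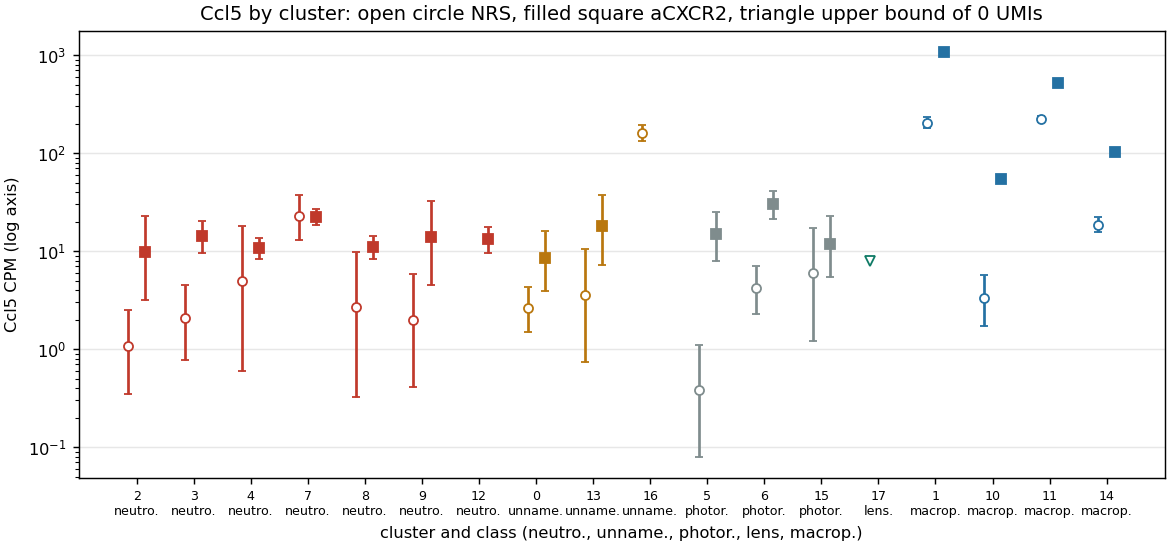
Ccl5 level in CPM (log axis) in each cluster with at least 50 cells in a library, with exact 95% Poisson intervals; the triangle is the upper bound for 0 UMIs. All aCXCR2 neutrophil-like clusters lay between 9.89 and 22.4 CPM, near the 14.8 of cluster 5, and the macrophage-like clusters lay at 54.7 to 1078.

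Of the receptors, Ccr1, through which Ccl3, Ccl5, Ccl6 and Ccl9 act, was level in neutrophil-like cells at 539 CPM in both libraries (log2 0.00, -0.04 to 0.05). Ccr1 was highest in cluster 9 (1477 and 1255 CPM) and cluster 12 of aCXCR2 (916), and lower in aCXCR2 in 3 of 6 clusters, with none higher. The class ratio lay between -0.83 and 0.70 over all alternatives and changed sign in 8 of 17, so no direction can be given. In macrophage-like cells Ccr1 was at 91.9 and 168 CPM (log2 0.87, 0.79 to 0.95), higher in 3 of 4 clusters, and past 2-fold when cluster 10 was left out (1.34).

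Ccrl2 was at 1189 CPM in NRS neutrophil-like cells (1168 to 1209) and 518 in aCXCR2 (509 to 528), 2.29-fold lower in aCXCR2 (log2 -1.20, -1.23 to -1.16). It was lower with an interval below 0 in 5 of 6 clusters, from -0.18 in cluster 2 to -1.46 in cluster 7, and its interval held 0 in cluster 9. The largest levels were in cluster 3 (2577 and 1791 CPM) and cluster 8 (1771 and 971). Leaving out cluster 3 (-0.85) or cluster 4 (-0.87), or keeping only clusters with a marker score of at least 0.4 (-0.83), took it below 2-fold with the sign kept. So did TMM scaling, median-of-ratios scaling (-0.50) and an equal weighting of clusters. The ratios of single clusters were taken with total UMIs only, so the count of clusters with lower Ccrl2 depends on that scaling. In macrophage-like cells it was at 68.8 CPM in NRS, near the 75.9 of rods of that library, and at 73.4 in aCXCR2, whose rods were at 6.84.

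**Figure D4:**
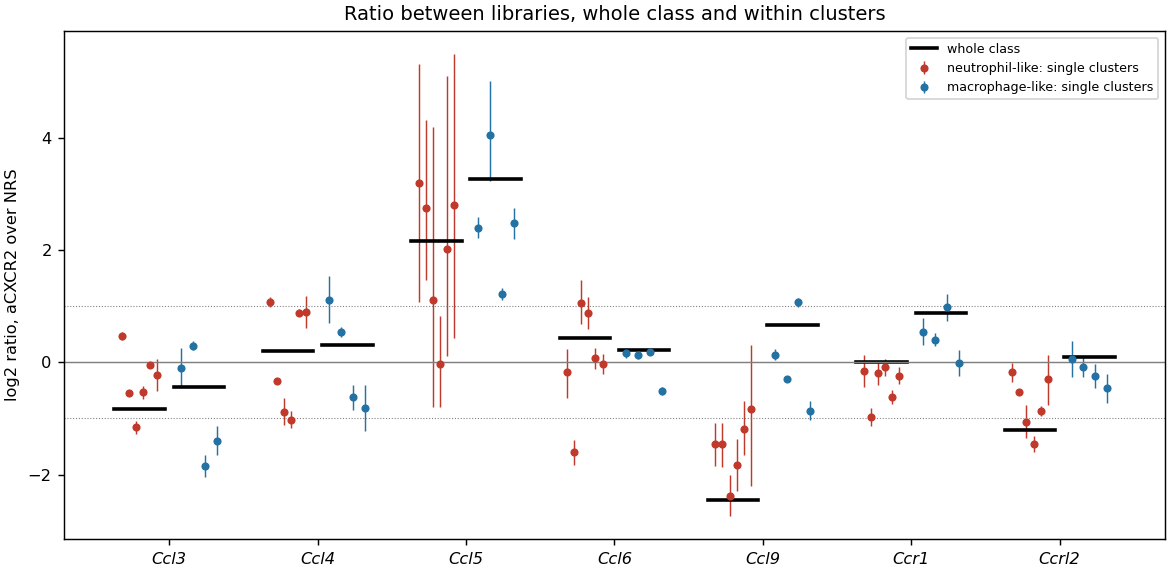
Log2 ratio of aCXCR2 over NRS for each gene, for single clusters with at least 50 cells in both libraries (points with exact 95% intervals, 6 neutrophil-like and 4 macrophage-like) and for the whole class (black lines); dotted lines mark 2-fold. Ccl9 and Ccrl2 lay below 0 in all 6 neutrophil-like clusters, Ccl5 above 0 in all 4 macrophage-like clusters, and Ccl3 and Ccl4 on both sides.

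Over all kept cells, Ccl5 (35.6 to 511 CPM, log2 3.84), Ccl6 (446 to 926, 1.05) and Ccl9 (264 to 543, 1.04) were at least 2-fold higher, and Ccl3 (1366 to 624, -1.13) and Ccrl2 (572 to 204, -1.49) lower. Among all 3550 genes at that level, 4.79% were higher and 11.2% lower. Ccl9 was thus higher over all cells and lower in neutrophil-like cells, and macrophage-like cells were 10.8% of the NRS and 36.6% of the aCXCR2 library. Without the barcodes found in both libraries, Ccl6 (0.95) and Ccl9 (0.95) were short of 2-fold, leaving 1 higher beside 4.01% of all genes. Ccl9 was also short of it under a stricter cell filter (0.75) and with the mean of per-cell CPM (0.70), which left 2 higher beside 4% and 5.07%. Under TMM and median-of-ratios scaling 0 of the 7 were lower, beside 7.1% and 6.87% of all genes.

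Co-detection in single cells thinned to 1000 UMIs was taken over the whole neutrophil-like class. Clusters were pooled, so the shares carry the differences between clusters and are no separate evidence about cells within a cluster. A Ccl4 UMI was present in 45.7% of NRS cells with a Ccl3 UMI and in a share of those without whose interval was 9.99% to 14.3%. The aCXCR2 shares were 43.3% and 14.1%. For Ccrl2 the values were 56.1% and 25.4% in NRS and 42.1% and 13.7% in aCXCR2. Ccr1 went the other way, with 29.4% against 45.1% in NRS and 32.2% against 43.5% in aCXCR2, and Ccl6 likewise with 15.2% against 22.7% and 18.8% against 29.9%. Exact intervals of each of these pairs were apart. Ccl4 was the more uneven gene: the top 10% of cells held 77.6% of its UMIs in NRS and 86.9% in aCXCR2, against 38.3% and 31.9% for Ccr1. Shares of cells with Ccl9 were 8.23% and 3.06%, against 0.540% and 0.813% in rods of cluster 5.

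**Figure D5:**
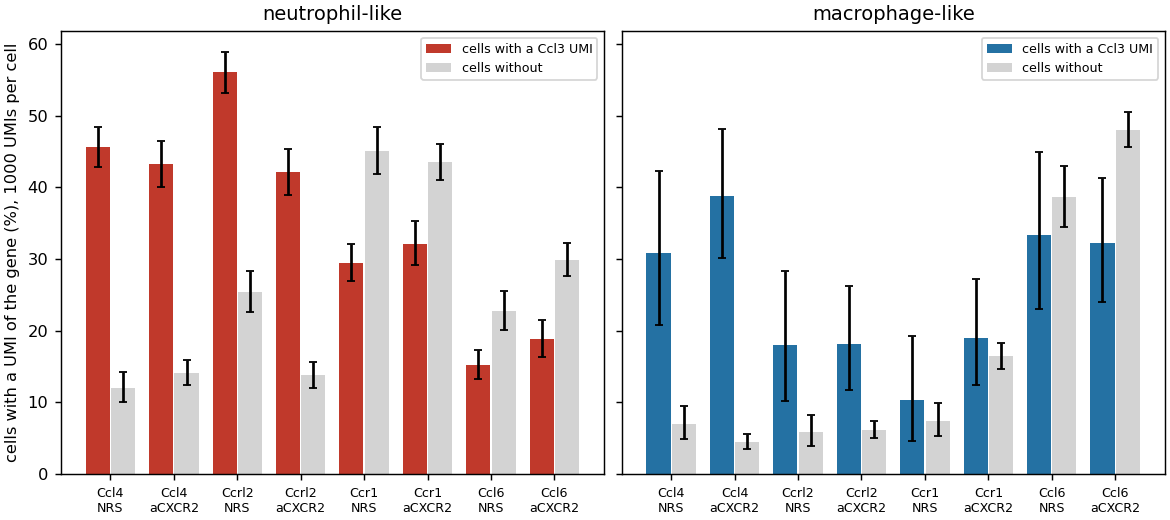
Share of cells with a UMI of Ccl4, Ccrl2, Ccr1 or Ccl6 (%) among cells with (coloured) and without (grey) a Ccl3 UMI, at 1000 UMIs per cell, with exact 95% binomial intervals. In neutrophil-like cells Ccl4 and Ccrl2 bars were higher beside Ccl3 and Ccr1 and Ccl6 bars lower; in macrophage-like cells Ccl4 was seen in 30.8% against 6.96% in NRS and 38.8% against 4.46% in aCXCR2.

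Patterns across clusters were compared over 33 cluster and library units with at least 50 cells. These units share libraries, depth and any free RNA, so correlations of log2(CPM + 10) are descriptions. Ccl3 was most like Il1rn (r = 0.93), Ccrl2 (0.93) and Tnf (0.92), and Ccrl2 most like Hcar2 (0.94), Tnf (0.94) and Nfkbib (0.94). Ccl4 was most like Cxcl2 (0.92), Ccl3 (0.91) and Il1rn (0.91). Ccr1 followed Srgn (0.97), Btg1 (0.96) and Mcl1 (0.96), and its r with Ccl3 was 0.52. Ccl6 followed Bmp2k (0.93), Xdh (0.90) and Fcgr3 (0.90), Ccl9 followed the macrophage gene Adgre1 (0.88), Runx3 (0.88) and Mtpn (0.85), and Ccl5 followed, among others, Tmem176a (0.87) and Fam26f (0.86).

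Other genes of the pathway were taken from fixed lists. Of 8 further CC ligands, only Ccl2, a monocyte attractant, reached 50 CPM in neutrophil-like cells, at 104 and 78.3 CPM. In macrophage-like cells Ccl2 was at 67.8 and 74.1 CPM, and Ccl8, another monocyte attractant, was lower in aCXCR2 at 1128 and 328 CPM (log2 -1.78). Of 6 further CC receptors none reached 50 CPM in neutrophil-like cells, whereas Ccr2, a monocyte receptor for Ccl2, was higher in aCXCR2 macrophage-like cells (57.1 to 230 CPM, log2 2.01). Cluster 1, with Ccr2 among its leading genes, held 9.87% of the NRS and 59.3% of the aCXCR2 macrophage-like class. For the chemerin partners of Ccrl2, the receptor Cmklr1 was at 61.2 and 75.8 CPM in macrophage-like cells, and chemerin itself, Rarres2, had 1 UMI there in NRS and 0 in aCXCR2. Among 9 genes that act below CC receptors, 8 reached 50 CPM in neutrophil-like cells; 1 was lower, Rgs1 (57.0 to 28.2 CPM), and the list's median log2 ratio was -0.28. Of 10 NF-kappaB and TLR-induced genes, all 10 reached 50 CPM there, 1 was lower (Tnf, 391 to 168 CPM, log2 -1.21) and the median was -0.01, while Il1b was at 3756 and 5484 CPM. In macrophage-like cells 8 of these 10 did, and 2 were higher, Il1b (564 to 1780 CPM, log2 1.66) and Tnfaip3 (35.4 to 73.1 CPM, 1.05). For all 3045 genes at 50 CPM in neutrophil-like cells, the share lower was 10.4% and the middle log2 ratio -0.42. The list medians of -0.28 and -0.01 lay above that value. For macrophage-like cells the shares over all genes were 4.52% higher and 2.56% lower.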

How the data were processed

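Single-cell libraries of zymosan-inflamed mouse eyes, 1 NRS and 1 aCXCR2, were analysed from the deposited UMI counts per gene and barcode, raw whole numbers per the file headers. Cell Ranger and Seurat are listed, with no version, in the submitters' processing notes, as is GRCh38, although gene IDs are mouse; software version 3.0.0 stands in the matrix headers. Which mouse build the authors used is unknown, so gene positions are those of the GENCODE annotation of GRCm38.

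The 7 genes, the marker lists and the pathway lists were chosen with earlier results of these data known. The 7 genes are always named; other genes are named from fixed pathway lists where they had at least 50 CPM, or as the 3 genes most alike each of the 7 in pattern.

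Kept barcodes had 500 or more UMIs, 200 or more genes and mitochondrial UMIs of 10% or less. Scrublet called 0 and 4 cells as doublets, far under the 256 and 186 expected, so the caller has not worked. Those 4 were removed and other doublets must be taken to remain. Cells were clustered without the 7 genes (2000 variable genes, 30 components, 15 neighbours, Leiden resolution 1; scanpy 1.11.5, leidenalg 0.10.2). The naming rule was set after clusters had been seen. An earlier scoring, and then a minimum score of 0.4 that left neutrophil-marked clusters 2 and 3 and macrophage-marked cluster 10 unnamed, were tried before the rule used (score of at least 0.25, 0.15 above the next class, at least 25 cells). The 0.4 minimum, under which 801 NRS and 2104 aCXCR2 neutrophil-like cells remain, is kept as an alternative.

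Counts were summed per class and library and divided by total UMIs (CPM), and the ratio step was tested on simulated data. Libraries held 61386486 and 85748842 UMIs. Intervals are exact Poisson, Clopper-Pearson or conditional, at 95%. TMM factors came from edgeR 4.0.16. Alternatives changed cell filter, doublets, clustering, naming, scaling, weighting, the CPM minimum and thinning depth. Sequences came from RefSeq tables; windows for Ccl4 and Ccl5 are not shown. Results for some genes of the fixed lists and of the most alike genes are not reported here.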

Additional observations from a re-analysis of the deposited data

Results flagged for a closer look

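Ccl9 had opposite signs in the main cell classes. Its log2 ratio of aCXCR2 over NRS was -2.45 in neutrophil-like cells and 0.66 in macrophage-like cells, with counting intervals on opposite sides of 0. With 1 library per group the difference was not tested. The neutrophil-like ratio stayed negative under all 17 alternatives (-2.69 to -0.79) and the macrophage-like ratio stayed positive (0.01 to 1.40).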

How the results depend on the processing

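No paired analysis was possible because each group is 1 library and the labels carry no replicate numbers; leaving out a replicate was likewise not possible. No ratio past 2-fold changed sign under any alternative. In neutrophil-like cells, the count of genes at least 2-fold lower went from 2 to 1 at resolution 0.5 (Ccrl2 left), and to 1 (Ccl9 left) without cluster 3, without cluster 4, under TMM or median-of-ratios factors, with clusters weighted equally and at a marker score of at least 0.4. It went to 3 (Ccl3 added) with the 7 genes kept in the clustering and without cluster 2. The count higher went from 0 to 1 under both factor scalings (Ccl6), with cells classed by their own markers (Ccl5) and at a minimum of 10 CPM (Ccl5). In macrophage-like cells, the count higher went from 1 to 2 and the count lower from 0 to 1 with cells classed by their own markers, and the count higher went to 3 without cluster 10 or at a marker score of at least 0.4. Over all cells, the count lower was 0 under both factor scalings, and the count higher went from 3 to 1 without barcodes found in both libraries and to 2 (Ccl9 lost) under the stricter cell filter and the mean of per-cell CPM. At 500 UMIs per cell, Ccl5 was seen in 0.807% of aCXCR2 neutrophil-like and 17.2% of macrophage-like cells. At 2000 UMIs, the NRS neutrophil-like share of cells with Ccl4 differed by 38.7 percentage points between cells with and without Ccl3, against 33.6 at 1000. The equal weighting, the marker score of 0.4, the addition of cluster 0 and the removal of shared barcodes were chosen after seeing the data. Causes were not tested. Depth limits Ccl5 in neutrophil-like cells and rods, which rests on 34 and 3 UMIs in NRS.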

Other observations

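Outside the named classes, cluster 0 (1077 NRS and 120 aCXCR2 cells, led by Itpr2, Ctsk and Gdf15) was high in Ccl3, at 2692 CPM in NRS and 1874 in aCXCR2, and in Ccrl2, at 1444 and 677. No marker list scored above 0.0905 there, and neutrophil markers summed to 4802 CPM in NRS and 20167 in aCXCR2. Ccl9 in that cluster was at 249 and 54.0 CPM, a log2 ratio of -2.20.

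The highest Ccl5 of any cluster was in unnamed cluster 18 (leading genes Gzmb, Ccr7 and Fscn1), where 17 NRS cells were at 1124 CPM and 23 aCXCR2 cells at 4414. Cells there with more dendritic than T or NK marker UMIs held 318 Ccl5 UMIs in 9 NRS cells and 1710 in 15 aCXCR2 cells. Of the NRS UMIs, 314 came from a single cell. Cells with more T or NK marker UMIs held 1 UMI in 8 NRS cells and 263 in 5 aCXCR2 cells. The lens-like cluster carried Ccl3 at 3035 CPM and 0 Ccl5 UMIs in NRS, and its summed neutrophil markers were 15142 CPM.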
